A study of Mus musculus with 6 samples.

Results

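Heterochromatin keeps repeats and retroelements silent, and the set described here is 10 genes for its main protein factors: Trim28, Setdb1, Setdb2, Suv39h2, Mphosph8, Cbx1, Cbx3, Cbx5, Atrx and Daxx. The genes were listed by name, with earlier results of these data known. A gene was measured where at least 1 array probe set carried its symbol alone. By that rule 9 of the 10 were measured, among 19938 genes in all. Mphosph8, which encodes the HUSH subunit MPP8, has a probe set only jointly with Parp4 and is given no value. The arrays were read gene by gene, and retroelement transcripts were not analysed here.

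The data are expression arrays of 6 mouse colon tumours in 2 groups of 3, taken at 20 weeks of age. All 6 came from ApcMin/+ mice, which carry a truncating Apc mutation in every cell, on a C57BL/6 and 129Sv4 hybrid background, treated with 2% (w/v) dextran sodium sulfate at 6 weeks of age; this compound injures the colon and promotes tumours. Control tumours had the genotype Dnmt1chip/+ and hypomethylated tumours Dnmt1chip/c, so the hypomorphic chip allele was in both groups, joined by a wild-type allele in one and by the conventional knockout allele c in the other. Per the design text, the control genotype has wild-type methylation and the hypomethylated genotype loses it at pericentromeric satellites. Both alleles are germline changes, not limited to the epithelium. The descriptions carry the same number for 3 hypomethylated tumours and for 2 control tumours, and no label states that each tumour came from its own mouse, so p-values measure the spread between tumours.

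As background, DNA methylation and methylation of histone H3 at lysine 9 (H3K9) are the main layers of repeat silencing. KRAB zinc finger proteins find retroelement sequences and recruit TRIM28 (KAP1), which brings in the H3K9 methyltransferase SETDB1. HP1 proteins, encoded by Cbx5 (alpha), Cbx1 (beta) and Cbx3 (gamma), bind the methylated lysine, SUV39H2 writes it at satellites, and ATRX with its partner DAXX deposits the histone variant H3.3 at heterochromatin. The comparison asks whether tumours with less DNA methylation also differ in these factors.

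Every value below is a log2 value centred on the median of its probe set over the 6 arrays. It shows how tumours differ and not how abundant a transcript is, and the middle pair of values of a gene with 1 probe set lie at equal distances on either side of 0. A gene is called where limma's moderated test over all genes gave a Benjamini-Hochberg adjusted p under 0.05. In whole tumours, fewer cells of a type and less RNA per cell cannot be told apart. Over all genes 32.0% were called, 21.3% lower and 10.7% higher in hypomethylated tumours. Lower genes made up 66.7% of the calls, against 56.9% when arrays were quantile-normalized and 61.8% when array medians were set equal.

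Of the 9 measured factors 7 were lower in hypomethylated tumours and none was higher; the test without adjustment gave 8 under 0.05, the additional one being Setdb2 with higher values. The same 7 genes were those whose groups did not overlap, with the hypomethylated tumours below, where 28.5% of all genes did so. The median difference over the 9 was -0.34 on the log2 scale, against -0.01 over all genes. The set was chosen with earlier results known, so its comparison with all genes is a description and not a test. The changes were small, between 1.26-fold and 1.48-fold. The 7 calls numbered 3 without control replicate 1 and 4 without control replicate 2; Trim28, Cbx1 and Cbx5 were called under each alternative run. Among genes inferred to be bright from the numeric step of their values, 33.4% of 10326 were lower. The members among them were all but Setdb2 and Suv39h2, and 6 of these were lower, while Daxx was not called.

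The promoters are shown because 7 factors moved in the same direction while Setdb2 and Daxx were not called. RefSeq windows for all 10 genes were read on GRCm38.p6, and the 250 bases before the most upstream start are given 5′ to 3′ with CpG dinucleotides, the sites of DNA methylation, in capitals. Trim28 (chr7:13023902-13024151, plus strand) and Cbx5 (chr15:103239853-103240102, minus strand) stand for the lower members. Atrx (chrX:105929373-105929622, minus strand) is a lower member with few CpGs. Setdb2 (chr14:59440881-59441130, minus strand) and Daxx (chr17:33909195-33909444, plus strand) are the pair that was not called.
Trim28: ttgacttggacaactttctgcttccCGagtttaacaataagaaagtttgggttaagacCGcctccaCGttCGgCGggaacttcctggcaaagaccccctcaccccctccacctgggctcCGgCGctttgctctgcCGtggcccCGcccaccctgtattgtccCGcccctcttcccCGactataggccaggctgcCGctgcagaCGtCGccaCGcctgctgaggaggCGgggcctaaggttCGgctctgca
Cbx5: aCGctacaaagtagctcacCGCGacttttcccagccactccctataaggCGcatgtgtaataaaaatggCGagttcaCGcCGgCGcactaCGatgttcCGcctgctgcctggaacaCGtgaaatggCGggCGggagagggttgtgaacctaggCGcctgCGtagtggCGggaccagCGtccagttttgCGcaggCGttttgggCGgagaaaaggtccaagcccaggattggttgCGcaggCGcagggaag
Atrx: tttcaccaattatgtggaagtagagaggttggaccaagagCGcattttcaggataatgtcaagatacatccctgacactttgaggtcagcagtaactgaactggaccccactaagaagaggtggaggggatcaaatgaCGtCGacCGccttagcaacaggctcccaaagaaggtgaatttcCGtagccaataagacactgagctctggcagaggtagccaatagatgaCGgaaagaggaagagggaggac
Setdb2: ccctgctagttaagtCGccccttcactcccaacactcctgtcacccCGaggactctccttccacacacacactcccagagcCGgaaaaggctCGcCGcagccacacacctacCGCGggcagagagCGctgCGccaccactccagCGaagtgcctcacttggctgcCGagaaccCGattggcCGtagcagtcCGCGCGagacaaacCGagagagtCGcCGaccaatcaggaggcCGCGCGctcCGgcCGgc
Daxx: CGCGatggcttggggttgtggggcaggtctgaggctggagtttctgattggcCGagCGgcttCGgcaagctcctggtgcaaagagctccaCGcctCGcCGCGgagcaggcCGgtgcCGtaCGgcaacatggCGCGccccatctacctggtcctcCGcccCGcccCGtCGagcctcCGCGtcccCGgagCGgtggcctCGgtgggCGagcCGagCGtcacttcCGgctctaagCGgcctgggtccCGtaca
Most of these windows are rich in CpG, whether the gene was lower or not. Trim28 has 17 CpGs, Cbx5 22, Setdb2 24 and Daxx 29, whereas Atrx has 6, the median of all 32851 RefSeq promoter windows. The median over the 10 genes was 20.5. Each of the 10 counts with its most upstream window, whereas the 32851 windows cover 27025 genes and include several for some. The GC box GGGCGGG, on either strand, was in 6 of the 10 windows and in 23.4% of all windows, and CCAAT, on either strand, in 6 of 10 and 33.8%. An E2F-type octamer (TTTCCCGC, TTTCGCGC, TTTGCCGC or TTTGGCGC, either strand), of the kind found before replication genes, was in the Cbx3 window and in no other of the 10, against 1.9% of all windows. These matches describe letters only, and no methylation was measured at these promoters in the data used here.

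Trim28, the corepressor that links KRAB zinc finger proteins to SETDB1, read 0.26, 0.27 and 0.21 across the controls and -0.25, -0.30 and -0.21 across the hypomethylated tumours. The groups were far apart and the tumours within each nearly equal. Group means of 0.25 ± 0.03 (SD, n = 3) in controls and -0.25 ± 0.04 (SD, n = 3) in hypomethylated tumours gave a clear gap, and Trim28 fell by 0.50 ± 0.05 (SE) on the log2 scale, 1.41-fold (limma, adjusted p = 0.001). It had the smallest adjusted p of the set, and 8.6% of all genes had a difference as low or lower. In a two-sided exact permutation test of single genes, all 7 lower members reached p = 0.1, the lowest value possible with groups of 3. Every gene whose groups do not overlap has this p, so it adds nothing to the overlap count. Groups were apart in 28.5% of all genes with the hypomethylated tumours below and in 17.9% with them above.

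Setdb1, the H3K9 methyltransferase that TRIM28 recruits, stood at 0.25, 0.31 and 0.06 in controls, and at -0.09, -0.23 and -0.06 in hypomethylated tumours. The groups did not overlap, but control replicate 3 and hypomethylated replicate 3 lay close together. Setdb1 fell by 0.33 ± 0.08 (SE) on the log2 scale, 1.26-fold (limma, adjusted p = 0.0228). Its adjusted p was 0.0855 without control replicate 1, 0.0771 without control replicate 2 and 0.0695 without hypomethylated replicate 2.

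Setdb2, a relative of Setdb1 in the same enzyme family, had control values of -0.16, 0.03 and -0.31 against 0.14, -0.03 and 0.50 in hypomethylated tumours. Control replicate 2 lay above hypomethylated replicate 2, so the groups overlapped. The difference was 0.35 ± 0.15 (SE) on the log2 scale and did not pass (limma, adjusted p = 0.113). Within each array, Setdb1 minus Setdb2 was 0.41, 0.28 and 0.37 across the controls but -0.24, -0.20 and -0.56 across the hypomethylated tumours. The difference of -0.69 ± 0.12 (SE) separated the groups (exact permutation p = 0.1, two-sided, 0.167 adjusted over the 5 pairs compared).

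Suv39h2, which writes H3K9 trimethylation at satellite repeats, read 0.29, 0.44 and 0.10 across the controls and -0.18, -0.45 and -0.10 across the hypomethylated tumours. All hypomethylated tumours were below all controls, with replicate 2 the most extreme in both groups. Suv39h2 fell by 0.52 ± 0.12 (SE) on the log2 scale, 1.44-fold (limma, adjusted p = 0.015; 0.0527 without control replicate 1). Its close relative Suv39h1 had no probe set under its symbol alone and is not described.

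**Figure D1:**
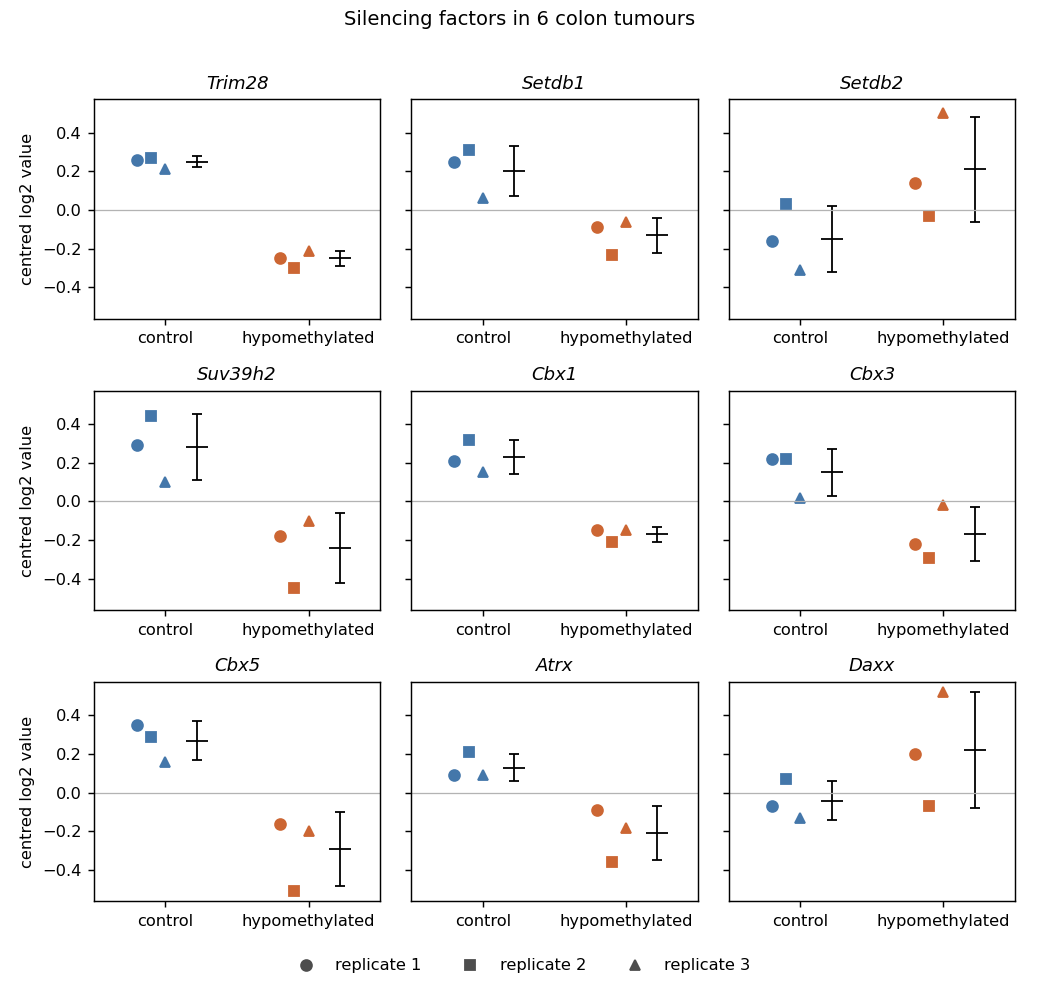
Centred log2 value (y axis) of each of the 9 measured factors in the 3 control and 3 hypomethylated tumours (x axis); symbols mark replicates, and the black bar gives mean ± SD. Hypomethylated tumours lie below all control tumours for 7 genes, while Setdb2 and Daxx overlap and reach 0.50 and 0.52 in hypomethylated replicate 3.

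The 3 HP1 genes were all lower. Cbx5, for HP1 alpha, which concentrates at pericentromeric heterochromatin, stood at 0.35, 0.29 and 0.16 in controls, and at -0.16, -0.51 and -0.20 in hypomethylated tumours. Hypomethylated replicate 2 was the lowest by a wide margin. Cbx5 fell by 0.56 ± 0.11 (SE) on the log2 scale, 1.48-fold, the greatest decrease of the set (limma, adjusted p = 0.00721).

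Cbx1, for HP1 beta, had control values of 0.21, 0.32 and 0.15 against -0.15, -0.21 and -0.15 in hypomethylated tumours. The hypomethylated tumours were nearly equal and the groups clearly apart. Cbx1 fell by 0.40 ± 0.06 (SE) on the log2 scale, 1.32-fold (limma, adjusted p = 0.00427).

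Cbx3, for HP1 gamma, which is also found in transcribed chromatin, read 0.22, 0.22 and 0.02 across the controls and -0.22, -0.29 and -0.02 across the hypomethylated tumours. Replicate 3 of each group was close to 0, so the groups were barely apart. Cbx3 fell by 0.33 ± 0.09 (SE) on the log2 scale, 1.26-fold (limma, adjusted p = 0.035). This call was the least stable of the 7: the adjusted p was 0.0569 under quantile normalization, 0.0553 with each array centred on its median, and 0.121, 0.111, 0.078 and 0.104 without control replicates 1 and 2 and hypomethylated replicates 1 and 2.

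Cbx3 is also the single member with several probe sets, 7 of them, and RefSeq lists 6 Cbx3 pseudogenes in the mouse genome. The annotation does not say which probe set reads the gene itself, and near-identical copies can share signal, so the value of Cbx3 is uncertain. Tested one by one over all probe sets with 1 symbol, of which 20.9% were called lower, 4 of the 7 were lower and 3 were not called. The 4 had differences from -0.40 to -0.37 and the 3 from -0.28 to -0.24, all below 0. In the 3 that were not called, control replicate 3 lay between -0.05 and -0.01, below hypomethylated replicate 3, which lay between 0.01 and 0.05.

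**Figure D2:**
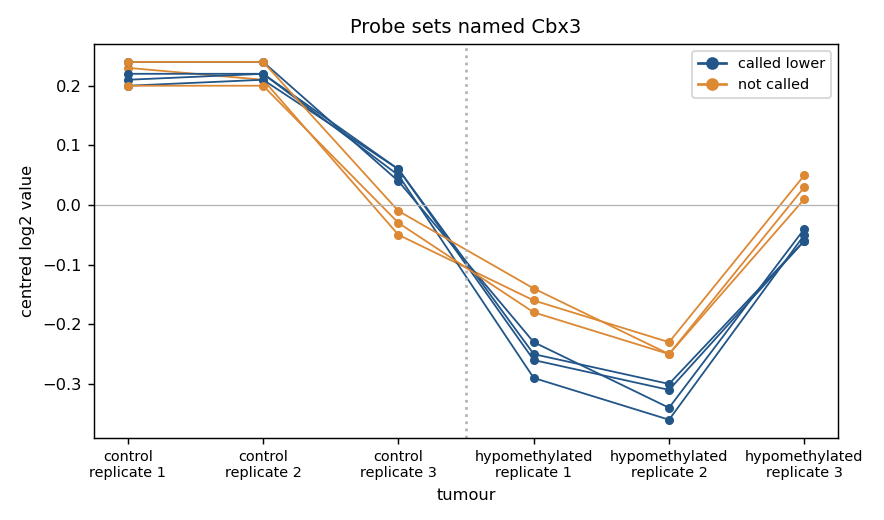
Centred log2 value (y axis) in each tumour (x axis) for the 7 probe sets named Cbx3, each joined by a line, with those called lower in blue and the others in orange. The probe sets agree closely in control replicates 1 and 2, between 0.20 and 0.24, and part in control replicate 3 and in the hypomethylated tumours.

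The HP1 genes were set against each other within arrays. Cbx3 minus Cbx5 was -0.13, -0.07 and -0.15 across the controls but -0.05, 0.22 and 0.19 across the hypomethylated tumours. These groups did not overlap (difference 0.23 ± 0.09 SE; exact permutation p = 0.1, two-sided, adjusted 0.167) and Cbx5 had the more negative difference, though no p below 0.1 is possible here. Cbx1 against Cbx5 (0.17 ± 0.10) and Cbx1 against Cbx3 (-0.07 ± 0.08) overlapped between groups, with exact permutation p = 0.2 and 0.5, and 0.25 and 0.5 adjusted.

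Of Atrx and Daxx, which act together in H3.3 deposition, Atrx was called lower and Daxx was not called. Atrx, the chromatin remodeller of the pair, stood at 0.09, 0.21 and 0.09 in controls, and at -0.09, -0.36 and -0.18 in hypomethylated tumours. The groups were apart, and Atrx fell by 0.34 ± 0.08 (SE) on the log2 scale, 1.27-fold (limma, adjusted p = 0.019; 0.053 without control replicate 1 and 0.0673 without control replicate 2).

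Daxx, the H3.3 chaperone, had control values of -0.07, 0.07 and -0.13 against 0.20, -0.07 and 0.52 in hypomethylated tumours. The groups overlapped because hypomethylated replicate 2, at -0.07, lay below control replicate 2, at 0.07. The difference was 0.26 ± 0.14 (SE) on the log2 scale and did not pass (limma, adjusted p = 0.224). Atrx minus Daxx within arrays was 0.16, 0.14 and 0.23 across the controls but -0.29, -0.30 and -0.70 across the hypomethylated tumours. The groups of this ratio were apart by -0.61 ± 0.14 (SE; exact permutation p = 0.1, two-sided, adjusted 0.167).

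Atrx lies on the X chromosome, so the sex-linked genes were read beside it. Xist, the RNA of the inactive X, lay between -0.18 and 0.17 in the 6 tumours and was not called (adjusted p = 0.154), and the Y-linked Eif2s3y lay between -0.19 and 0.08. Kdm5d, also Y-linked, rose by 0.25 (adjusted p = 0.0341), but it was not called without control replicate 1 or 3 or hypomethylated replicate 1 or 3 (adjusted p from 0.065 to 0.128), nor with the replicate number as a block (0.117). The Y-linked Uty had a difference of -0.28 and the X-linked Kdm5c one of 0.05, and neither passed (adjusted p = 0.0716 and 0.545). The X-linked Kdm6a and Eif2s3x fell by 0.60 and 0.29 (adjusted p = 0.0021 and 0.0141); Eif2s3x was not called without control replicate 1 or 2 (0.0554 and 0.0522), nor with that block (0.058). No member lies on chromosome 9, which carries Dnmt1.

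**Figure D3:**
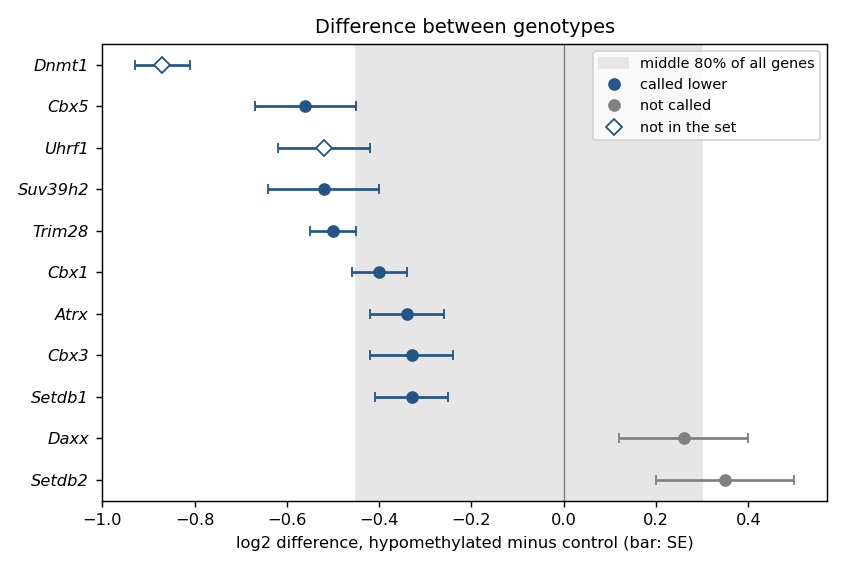
Log2 difference between hypomethylated and control tumours (x axis; bars give the SE) for the 9 factors, filled circles, and for Dnmt1 and Uhrf1, open diamonds; blue marks genes called lower and the grey band the middle 80% of all genes, from -0.45 to 0.30. Cbx5, Suv39h2 and Trim28 lie below the band, and Setdb2 lies above it without being called.

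The members shared an order of tumours within each genotype. Hypomethylated replicate 2 was the lowest of its group in 9 of 9 members, including Setdb2 and Daxx, and in 29.8% of all genes. Among the controls, replicate 3 was the lowest in 8 of 9 members (32.7% of all genes) and replicate 2 the highest in 8 of 9 (32.5%). Hypomethylated replicate 3 was the highest of its group in 7 of 9 (27.5%). Genes that vary together are not separate observations, so these counts describe 6 tumours and carry no test.

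Cell cycle and replication genes had a like order in most cases. Of 28 measured proliferation genes, control replicate 2 was the highest control in 24 and control replicate 3 the lowest in 26, while hypomethylated replicate 2 was the lowest of its group in 19, replicate 1 in the other 9, and replicate 3 the highest in 25. The mean centred value of these genes was 0.24, 0.32 and 0.10 across the controls but -0.28, -0.32 and -0.11 across the hypomethylated tumours. Of these genes 23 were lower and 1 was higher, with a median difference of -0.53. That is 82.1% lower and 3.6% higher, against 21.3% and 10.7% of all genes. The other 4, Mki67, Top2a, Birc5 and Aurka, had differences of -0.20, -0.18, -0.03 and -0.28. None of these 4 passed (limma, adjusted p = 0.179, 0.268, 0.871 and 0.0601). Mcm2, a replication helicase subunit, fell by 0.73 and Ccne1, a G1 cyclin, by 0.59 (adjusted p = 0.00139 and 0.00208), whereas the transcription factor gene E2f2 rose by 0.39 (adjusted p = 0.0147). The part of these genes in the result for the silencing factors was not tested.

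Markers of cell types moved as well, where 21.3% of all genes were lower and 10.7% higher. The mean over 15 fibroblast markers ran from 0.10 to 0.44 in the control tumours and from -0.52 to -0.10 in the hypomethylated tumours, and 11 of them were lower and 1 higher (7 lower without hypomethylated replicate 3). The mean over 12 colon epithelium markers ran from -0.23 to -0.22 and from 0.20 to 0.37, with 10 of 12 higher. Endothelial markers (6 of 12 lower, 1 higher; means 0.05 to 0.19 against -0.36 to -0.03), smooth muscle markers (4 of 10 lower; 0.08 to 0.29 against -0.25 to -0.08) and macrophage markers (4 of 12 lower; -0.02 to 0.41 against -0.70 to 0.04) were lower in part. Among lymphocyte markers 1 of 10 was higher (-0.14 to 0.18 against -0.12 to 0.59). The 6 endothelial calls numbered 3 when control replicate 2 or 3, or hypomethylated replicate 3, was left out, and the 4 macrophage calls numbered 10 without hypomethylated replicate 1 and 0 without any other single tumour. Centred values keep no level, so neither the tissue label nor the absence of a cell type can be checked, and the part of these cells in the result was not tested.

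Genes for other H3K9 methyltransferases, their partners and related histone methyltransferases were lower in part. Of 12 measured genes 6 were lower and none higher, with a median of -0.28, where 21.3% of all genes were lower. Ehmt1, which encodes the GLP methyltransferase, read 0.27, 0.33 and 0.22 across the controls and -0.27, -0.30 and -0.22 across the hypomethylated tumours, and fell by 0.54 ± 0.06 (SE; limma, adjusted p = 9.48e-04). Wiz, a zinc finger partner of GLP and G9a, fell by 0.33, Cdyl, a chromodomain reader, by 0.40 and Atf7ip, which stabilises SETDB1, by 0.35 (adjusted p = 0.0057, 0.00577 and 0.00653). Ehmt2, for G9a, had a difference of -0.09 and did not pass (adjusted p = 0.335).

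HUSH silences long retroelements and other intronless insertions, and MORC2 works with it. Of 10 genes in the HUSH and MORC list 3 were lower and none higher (5 lower without hypomethylated replicate 1). That is 30.0%, against 21.3% of all genes and 33.4% of the genes inferred to be bright. The HUSH subunit gene Pphln1 stood at 0.18, 0.27 and 0.20 in controls, and at -0.22, -0.26 and -0.18 in hypomethylated tumours, and fell by 0.44 ± 0.06 (SE; limma, adjusted p = 0.00177). Morc4 fell by 0.66 and Morc2a by 0.28 (adjusted p = 0.00447 and 0.0162). Tasor, the scaffold subunit, had a difference of -0.17 and did not pass (adjusted p = 0.127).

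Of 14 measured histone chaperone genes 10 were lower and none higher, with a median of -0.35. That is 71.4%, against 21.3% of all genes and 33.4% of the genes inferred to be bright. Chaf1b, a subunit of the CAF-1 chaperone that loads histones behind the replication fork, had control values of 0.45, 0.53 and 0.27 against -0.51, -0.65 and -0.27 in hypomethylated tumours, and fell by 0.90 ± 0.11 (SE; limma, adjusted p = 0.00167). Rbbp4, which CAF-1 shares with other complexes, fell by 0.60, Nap1l1 by 0.43 and Asf1b, which hands histones to CAF-1, by 0.56 (adjusted p = 5.82e-04, 0.00307 and 0.0038). Hira, which deposits H3.3 outside heterochromatin, fell by 0.26 (adjusted p = 0.02).

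Around TRIM28, 7 of 15 genes for KRAB zinc finger proteins, TRIM relatives and the SUMO pathway were lower and none higher (4 lower without control replicate 1). Over all genes 21.3% were lower, and 33.4% among the genes inferred to be bright. Zfp568 fell by 0.54, Pias1, a SUMO ligase gene, by 0.40, Sae1, of the SUMO-activating enzyme, by 0.42 and Trim33 by 0.36 (adjusted p = 0.0026, 0.00319, 0.00743 and 0.0103). Zfp809 and Zfp57, zinc finger proteins that guide TRIM28 to a provirus and to imprinted regions, had differences of 0.07 and -0.12 and did not pass. Remodellers and structural proteins were lower in 9 of 19 with none higher, which is 47.4% against the same shares of 21.3% and 33.4%. Among them were Zmynd11 (-0.55), the linker-histone relative Hp1bp3 (-0.50), Chd4 (-0.33) and Pogz (-0.55), with limma adjusted p from 6.96e-04 to 0.00577. Hells, a remodeller needed for repeat methylation, had a difference of -0.43 and did not pass (adjusted p = 0.0645).

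Among enzymes that remove the mark 36.4% were lower, against 21.3% of all genes and 33.4% of the genes inferred to be bright. Of 11 H3K9 demethylase genes 4 were lower and none higher, with Kdm1a, for LSD1, falling by 0.57, Phf8 by 0.30, Kdm4a by 0.34 and Phf2 by 0.26 (adjusted p = 8.01e-04, 0.00971, 0.0102 and 0.0295). On the DNA side, 5 of 9 genes were lower and none higher (3 lower without control replicate 1, and Mbd2 higher under quantile normalization). Dnmt1, the altered gene, fell by 0.87, Dnmt3a by 0.55, Uhrf1, which reads both hemimethylated DNA and methylated H3K9, by 0.52 and Dnmt3b by 0.37 (adjusted p = 3.13e-04, 0.00208, 0.00714 and 0.0112). Dnmt1 and Uhrf1 remained called under each alternative run.

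**Figure D4:**
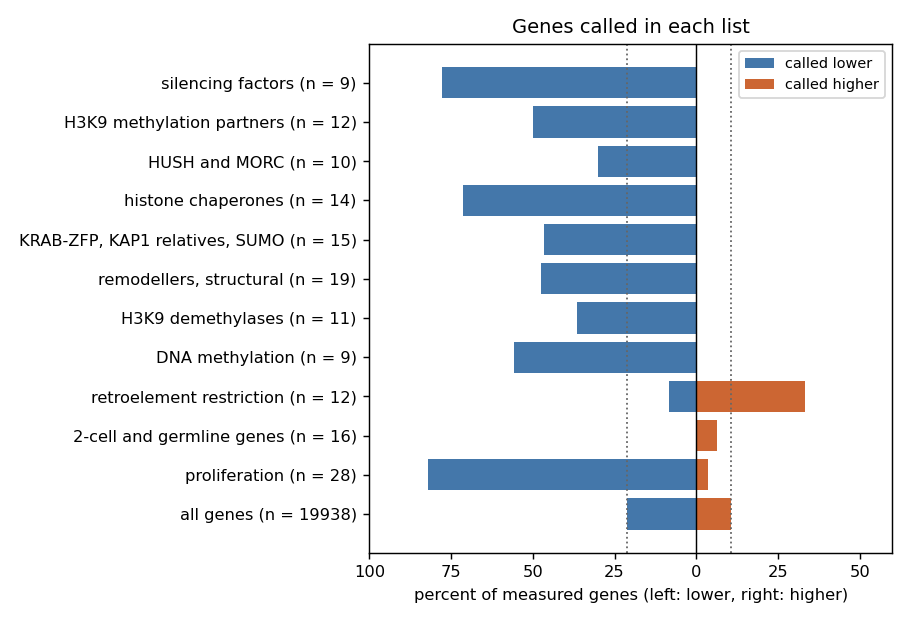
Percent of the measured genes of each list (y axis, with n) that were called lower (blue, to the left) or higher (orange, to the right) in hypomethylated tumours; dotted lines mark the shares over all genes, 21.3% and 10.7%. The shares of lower calls reach 77.8% for the silencing factors, 71.4% for the histone chaperones and 82.1% for the proliferation genes. Cell type and sex-linked lists are not drawn; among them 73.3% of the fibroblast markers were lower and 83.3% of the colon epithelium markers higher.

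Genes that restrict retroelements after transcription were mostly higher where they were called. Of 12 measured, 4 were higher and 1 lower, with a median of 0.33 (2 higher without control replicate 1 or hypomethylated replicate 3). That is 33.3% higher and 8.3% lower, against 10.7% and 21.3% of all genes. Samhd1, a nucleotide hydrolase that starves reverse transcription, read -0.67, -0.33 and -0.38 across the controls and 1.05, 0.33 and 0.64 across the hypomethylated tumours, and rose by 1.13 ± 0.18 (SE; limma, adjusted p = 0.00406). The groups were well apart. Zc3hav1, the zinc finger antiviral protein gene, rose by 0.49, the RNA helicase gene Mov10 by 0.40 and Adar, an RNA-editing enzyme gene, by 0.36 (adjusted p = 0.00548, 0.0221 and 0.0459). The lower gene was Rnaseh2b, a subunit of ribonuclease H2, which fell by 0.54 (adjusted p = 0.00835). Several of these genes are known to respond to interferon.

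Genes known to be released when these silencers are lost in embryonic or germline settings mostly did not pass. Of 24 listed early-embryo and germline genes 16 were measured, 1 was higher and none lower, where 10.7% of all genes were higher, and 4 had an unadjusted p under 0.05, each with higher values. In 5 of the 16 the groups did not overlap with the hypomethylated tumours above, and in 0 with them below, where 17.9% of all genes lay apart and above. Under quantile normalization 3 were higher. All 16 measured genes lay outside those inferred to be bright. The shares over all genes are therefore not a like comparison, and a missing call does not show that a gene stayed silent. The higher gene was Tex11, a meiosis gene, which rose by 0.64 (limma, adjusted p = 0.0177; not called when control replicate 1 or 2 was left out, nor without hypomethylated replicate 3). Asz1, Sohlh2 and Mael, germline genes, had differences of 0.33, 0.22 and 0.17 and did not pass (adjusted p = 0.0759, 0.104 and 0.109), nor did Slc25a31, at 1.60 (adjusted p = 0.25). Zfp352, a marker of the early-embryo programme linked to the retroelement MERVL, had a difference of 0.12 (adjusted p = 0.307), and the germline gene Dazl -0.02 (adjusted p = 0.862).

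**Figure D5:**
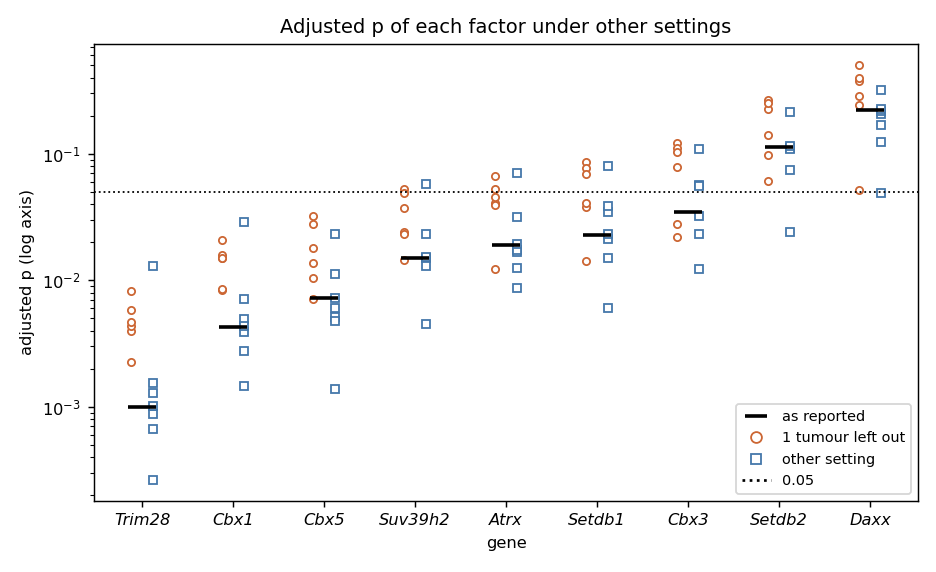
Adjusted p (y axis, log axis) of each factor (x axis) as reported, black bar, with 1 tumour left out, orange circles, and under the other settings, blue squares; the dotted line is 0.05. Trim28, Cbx1 and Cbx5 stay under the line at every setting drawn, while Setdb1, Atrx, Suv39h2 and Cbx3 rise above it at some; Setdb2 and Daxx lie above it as reported and fall below it with array weights (0.0239 and 0.0487).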

How the data were processed

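RNA of 6 colon tumours was biotin-labelled and hybridised to arrays, of the MoGene 1.0 ST type where descriptions name one. The deposited table holds log2 values for 28856 probe sets (base inferred from the values), centred by probe set (median 0 in 100% of rows); how arrays were normalized and probes summarised is not given in the sources used here. Values on the coarser of the numeric steps in the table were taken to come from bright probe sets, an inference. Probe sets with 1 symbol in the platform annotation (21789) were averaged per gene, with names checked by Entrez number against RefSeq. Groups follow the titles.

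limma 3.58.1 in R 4.3.3 (lmFit, eBayes, no trend or block) compared 3 with 3 tumours over all genes, two-sided; related genes were compared within arrays by exact permutation over 20 assignments. The comparison of Suv39h1 with Suv39h2 could not be run. The members and lists were chosen with earlier results of these data known. Named were all members, Dnmt1, Uhrf1 and up to 4 called genes per list by smallest p, plus members against their list. Ehmt2, Tasor, Hira, Hells, Zfp57, Zfp809, Zfp352, Dazl, Mbd2 and Xist were added after their values were seen. So were Eif2s3y, Uty, Kdm5c, Asz1, Sohlh2, Mael, Slc25a31, Mki67, Top2a, Birc5 and Aurka. Promoters were also searched for NRF1 (GCATGCGC), YY1 (AAGATGGC), ETS (CCGGAAG) and CRE (TGACGTCA) letters, found in 0, 0, 2 and 1 of 10 windows and in 2.3%, 1.6%, 6.9% and 1.5% of all. The fit was tested on simulated data. Arrays carry no counts, so no counting interval is given; their small number limits precision.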

Additional observations from a re-analysis of the deposited data

How the results depend on the processing

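The 7 lower members numbered 3 with the replicate block, 3 at an adjusted p under 0.01 and between 3 and 7 with 1 tumour left out; the 0 higher members became 2, Setdb2 and Daxx, with array weights, which gave control replicate 1 a weight of 7.69 against at most 0.99 for the others. Over all genes, 4256 lower became 2714 with the replicate block and 2319 at 0.01, and ran from 2792 to 4270 with 1 tumour left out; 2124 higher became 1192 at 0.01 and ran from 1407 to 2323. No member changed direction under the alternatives run. The labels state no pairing of the tumours by replicate number. Same-numbered deviations correlated at -0.29, -0.31 and -0.22, and 0 of 6 tumours correlated best with their own number. With so few tumours per group these values cannot exclude a pairing. Of the list counts, 12 were 0 as reported. For the 22 above 0, 266 of 330 recomputed counts stayed within 1.5 times. None of 54 recomputed within-array differences between paired genes moved beyond the replicate spread. Quantile normalization moved the median of all genes from -0.01 to 0.02. Setdb2 and Suv39h2 could not be fitted among bright genes. The cause of these changes was not tested.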

Other observations

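Slc25a31, a germline ADP/ATP carrier gene named here after its values were seen, read -0.01, -0.22 and -0.02 across the controls and 3.97, 0.56 and 0.01 across the hypomethylated tumours. The groups did not overlap, but hypomethylated replicate 1 carried nearly all of the difference of 1.60 ± 0.94 (SE), which did not pass (limma, adjusted p = 0.25).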
